A study of Mus musculus with 12 samples.

Results

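The Zfp genes of the mouse are the numbered zinc finger protein genes, *Zfp1* upward. Those studied here are the listed genes whose symbol is Zfp followed by a number alone, with at least 1 CPM (read count scaled to a common library size) in at least 2 libraries, without *Zfp36*, which encodes a CCCH zinc finger protein that binds RNA. They number 289 of the 12850 genes listed and of the 11885 genes that passed the same CPM minimum and were tested. The other 15 of the 304 Zfp genes listed without *Zfp36* fell below the minimum. RNA was sequenced from thioglycollate-elicited peritoneal exudate cells (PECs), macrophage-rich cells drawn into the peritoneum by an injected irritant. The donors were C57BL/6 mice, either WT or homozygous for the S513A knock-in of *Zc3h12a*, which encodes the RNase Regnase-1 and in which a serine codon is changed to alanine in every cell. PECs of each genotype were cultured without lipopolysaccharide (LPS, 0 hr) or with 100 ng/ml of LPS, which comes from the outer membrane of bacteria, for 4 or 8 hr. Each of the 6 groups (WT at 0, 4 and 8 hr, S513A at 0, 4 and 8 hr) had 2 libraries, 12 in all. The labels do not say whether the 2 libraries of a group came from separate mice, so the p values measure the spread between these libraries, which may be technical. Each value is a log2 CPM, and a log2 fold change is a difference between group means of log2 CPM.

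Most Zfp genes encode proteins with tandem C2H2 zinc fingers, small folds in which a pair of cysteines and a pair of histidines hold a zinc ion and in which a few residues of each finger contact the bases of DNA. Many also carry a Krüppel-associated box (KRAB), which recruits the scaffold protein KAP1 (gene *Trim28*). KAP1 in turn brings the histone H3K9 methyltransferase SETDB1 and heterochromatin protein 1, and this assembly silences retroelements and imprinted regions. KRAB zinc finger genes arose by repeated duplication and lie in clusters on a few chromosomes. A minority of Zfp proteins act instead as activating transcription factors, as parts of chromatin complexes or on RNA and ribosomes.

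Total reads on the listed genes were 9525979 to 12439960 per library, with a median of 11137241. All 17 LPS-induced control genes tested, among them *Tnf* and *Il1b*, were higher at both times. Of 9 macrophage markers, 8 were listed, with a summed level of 16754 to 27848 CPM in each library. Markers of B cells, T cells, mast cells and mesothelial cells summed to at most 8.87, 2.16, 3.84 and 3.41 CPM. *Siglecf* and *Ccr3*, the 2 of 6 eosinophil markers listed, summed to 15.3 to 18.5 CPM at 0 hr, 8.02 to 10.0 CPM at 4 hr and 3.62 to 4.58 CPM at 8 hr, so they fell along with the LPS time course. *S100a8*, *Camp* and *Mmp8*, the 3 of 10 neutrophil markers listed, summed to 660 to 745 CPM at 0 hr, 445 to 689 CPM at 4 hr and 362 to 575 CPM at 8 hr. The part of these cells in the changes below was not tested. The S513A change is a single codon, so the *Zc3h12a* mRNA level does not check the genotype labels.

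The Zfp genes were expressed at low levels. Together they took 0.304% to 0.45% of the reads of a library. Their median mean level was 7.13 CPM, against 23.1 CPM for all genes tested, and 104 of the 289 had a mean under 5 CPM, while 10 reached 50 CPM. The highest 3 were *Zfp207* at 134 CPM, *Zfp106* at 121 CPM and *Zfp710* at 97.5 CPM. *Zfp207*, also called BuGZ, takes part in spindle assembly, and *Zfp106* encodes an RNA-binding protein. Per kilobase of transcript, *Zfp207* remained the highest at 85.8 CPM per kb, ahead of *Zfp706* at 19.2 CPM per kb, against a range from 0.085 CPM per kb upward. Just inside the CPM minimum stood *Zfp551* and *Zfp2*, whose second highest libraries held 1.01 CPM each, and just outside stood *Zfp112* at 0.962 CPM and *Zfp651* at 0.922 CPM.

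Transcripts of 287 members were found in the annotation. Their median length was 3373 bases, against 2950 bases over 11275 genes tested with a transcript, and their median GC content was 44.8%, against 50.3%. A KRAB pattern was found in the proteins of 146 members and not in those of 141. The number of C2H2 fingers per protein had a median of 11 and ran from 0, in 5 members, to 37. Paralogous sequence was limited for most: the median share of a member's 50-base words that also occur in transcripts of another gene was 1.42%. It exceeded 25% in 34 members, whose counts are therefore uncertain, and it was highest in *Zfp708* (94.9%) and *Zfp784* (94.7%).

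After 4 hr of LPS, averaged over the genotypes, 36 of the 289 members rose and 71 fell, while 182 did not pass the test (limma, Benjamini-Hochberg adjusted p under 0.05 over all genes tested). The rising members were 12.5% of the family, where 29.1% of all genes tested rose. The falling members were 24.6%, where 26.7% of all genes tested fell. The median log2 fold change was -0.15 over the members and 0.02 over all genes, and 187 members had a negative value. These are bulk RNA samples, in which fewer cells of a type and less RNA per cell cannot be told apart. All 4 LPS libraries lay above all 4 libraries of 0 hr for 33 members, against 25.7% of all genes, and below them for 65 members, against 23.4% of all genes. Of the 107 members called, 85 changed by less than 1 on the log2 scale. With a trend on transcript length and GC content removed from each library, 31 members were higher and 125 lower, or 10.8% and 43.6% of 287, where 30.5% and 34.8% of 11275 genes were, so the share of falling members lay above that of all genes in that fit and below it in the fit without the correction.

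The members were also set beside genes of like level. Under a mean of 5 CPM, 4.8% of 104 members rose and 27.9% fell, where 15.6% of 2593 genes rose and 31.4% fell. Among genes with a mean of 5 to 20 CPM, 12.7% of 134 members rose and 25.4% fell, where 21% of 2952 genes rose and 33.1% fell. At a mean of 20 CPM or more, 27.5% of 51 members rose and 15.7% fell, where 38.5% of 6340 genes rose and 21.8% fell. The median log2 fold changes under 5 CPM were -0.37 for the members and -0.29 for all genes. At 5 to 20 CPM they were -0.13 for the members and -0.11 for all genes. At 20 CPM or more they were 0.07 and 0.13. The plot of change against level gives each member at both times.

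**Figure D1:**
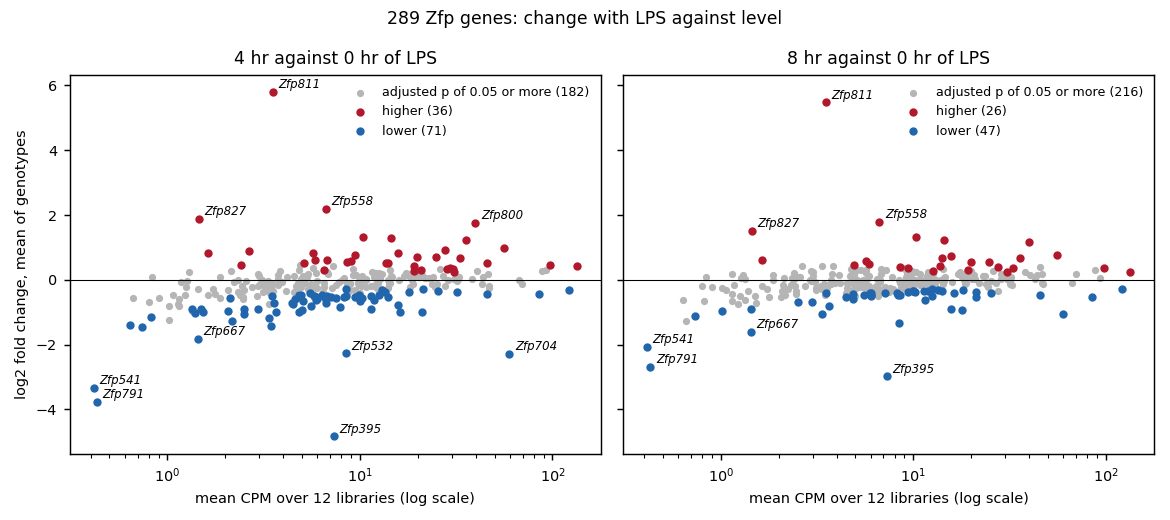
Log2 fold change of the 289 Zfp genes at 4 hr (left) and 8 hr (right) of LPS against 0 hr, mean of genotypes, against mean CPM over 12 libraries on a log axis. Red points rose and blue points fell at an adjusted p under 0.05, and genes that changed by more than 1.5 are named; most points lie within 1 of 0, and *Zfp811* stands apart at 5.80 and 5.48.

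The genes described from here to *Zfp667* were chosen among called members whose LPS libraries all lay on one side of the 0 hr libraries. That separation is given by the choice and adds no support to their changes. *Zfp811*, a KRAB gene on chromosome 17 (GRCm38, 32795676 to 32810057), had the largest rise. It was counted 1 and 1 times in the WT libraries and 2 and 0 times in the S513A libraries at 0 hr. At 4 hr it was counted 69 and 79 times in WT and 53 and 39 times in S513A, and at 8 hr 46 and 41 times in WT and 62 and 43 times in S513A. Reads were nearly absent before LPS and present in every library after it. The gene reached the CPM minimum only in LPS libraries, so it was let in through the groups where it is high. Relative to library size, the 240 reads at 4 hr were 74.1 times the 4 reads at 0 hr, with an exact 95% interval of 28.6 to 274 that covers counting error only. At 8 hr the ratio was 58.1 (22.3 to 215). The fitted log2 fold change depends on the offset of 0.5 read and was 5.80 at 4 hr (SE 0.42, limma adjusted p = 6.58e-07) and 5.48 at 8 hr (SE 0.42, limma adjusted p = 1.34e-06). Its neighbours did not pass the test at 4 hr, *Zfp871* at 0.29 on the log2 scale (limma adjusted p = 0.115) and *Zfp799* at -0.23 (limma adjusted p = 0.217). *Zfp811* shared 0.65% of its 50-base words with other genes.

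*Zfp558*, a KRAB gene with 9 fingers, rose next most. Its log2 CPM was 1.26 and 0.97 in WT and 1.47 and 0.85 in S513A at 0 hr, and 3.49 and 3.21 in WT and 3.26 and 3.36 in S513A at 4 hr. The values at 8 hr were 2.61 and 2.87 in WT and 3.00 and 3.23 in S513A. Every LPS library exceeded every unstimulated one, and the log2 fold change was 2.19 at 4 hr (SE 0.16, limma adjusted p = 8.65e-07) and 1.79 at 8 hr (SE 0.16, limma adjusted p = 5.84e-06).

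*Zfp658* and *Zfp719*, both KRAB genes, lie 3417 bases apart on chromosome 7, and both rose. For *Zfp658* the log2 CPM was 2.52 and 2.44 in WT and 2.12 and 2.37 in S513A at 0 hr, against 3.74 and 3.88 in WT and 3.67 and 3.43 in S513A at 4 hr. For *Zfp719* it was 2.94 and 2.85 in WT and 2.92 and 2.84 in S513A at 0 hr, against 4.29 and 4.13 in WT and 4.13 and 4.23 in S513A at 4 hr. The groups did not overlap for either gene, and the values at 8 hr stayed at the level of 4 hr, between 3.61 and 3.74 for *Zfp658* and between 3.93 and 4.35 for *Zfp719*. The log2 fold change at 4 hr was 1.32 (SE 0.11, limma adjusted p = 1.81e-06) for *Zfp658* and 1.30 (SE 0.09, limma adjusted p = 4.11e-07) for *Zfp719*. At 8 hr they were 1.32 and 1.23. On the other side of *Zfp658*, *Cd33* was at 0.01 at 4 hr (limma adjusted p = 0.945).

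The 250 bases before an annotated start of *Zfp811* and of each gene of this neighbouring pair are shown. These genes had large rises, and the pair rose together. For each gene the start used lies inside the span of the gene, so the stretch runs partly within that span. The span of *Zfp811* is given above, and those of *Zfp658* and *Zfp719* begin at 43562202 and 43579559. The stretches are thus not all sequence before the gene. The stretches come from RefSeq (GRCm38.p6), read 5′ to 3′ on the gene's strand, and the capitals mark CG dinucleotides. *Zfp811* is on the minus strand (chr17:32809932-32810181), *Zfp658* and *Zfp719* on the plus strand (chr7:43562120-43562369 and chr7:43579336-43579585).
Zfp811: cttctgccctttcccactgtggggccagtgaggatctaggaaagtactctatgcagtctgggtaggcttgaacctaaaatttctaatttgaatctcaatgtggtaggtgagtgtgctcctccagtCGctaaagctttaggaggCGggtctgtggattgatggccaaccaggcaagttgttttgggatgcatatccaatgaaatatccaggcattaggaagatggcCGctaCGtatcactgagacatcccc
Zfp658: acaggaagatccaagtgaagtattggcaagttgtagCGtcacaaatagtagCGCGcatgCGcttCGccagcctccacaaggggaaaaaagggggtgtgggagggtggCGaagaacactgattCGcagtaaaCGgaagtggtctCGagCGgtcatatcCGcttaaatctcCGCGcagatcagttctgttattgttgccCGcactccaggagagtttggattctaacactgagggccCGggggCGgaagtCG
Zfp719: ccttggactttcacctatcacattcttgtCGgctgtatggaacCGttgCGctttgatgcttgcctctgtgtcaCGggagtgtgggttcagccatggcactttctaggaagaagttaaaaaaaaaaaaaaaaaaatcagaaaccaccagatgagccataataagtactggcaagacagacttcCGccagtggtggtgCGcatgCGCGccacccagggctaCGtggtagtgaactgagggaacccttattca
The *Zfp811* stretch holds 4 CG dinucleotides, that of *Zfp658* 17 and that of *Zfp719* 9. Over the whole 300-base promoter, from 250 bases before to 50 bases after the start, the median number was 14 for the 242 members with a promoter in the table, 19 for the 29 that rose at 4 hr with one, 14 for the 58 that fell, and 21 over 9345 genes tested.

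*Zfp827* encodes a protein that binds the NuRD complex. It was counted only 3 to 9 times at 0 hr and 15 to 28 times at 4 hr in each library. It reached the CPM minimum only in LPS libraries, so it was let in through the groups where it is high. Its log2 CPM was -0.76 and -0.45 in WT and -1.70 and -0.33 in S513A at 0 hr, and 1.33 and 1.11 in WT and 1.01 and 0.85 in S513A at 4 hr. The groups did not overlap, and the log2 fold change was 1.88 at 4 hr (SE 0.30, limma adjusted p = 0.000312) and 1.52 at 8 hr (SE 0.30, limma adjusted p = 0.00177).

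*Zfp800* was one of the more abundant risers, at a mean of 39.8 CPM. Its log2 CPM was 4.26 and 4.17 in WT and 4.16 and 4.07 in S513A at 0 hr, 5.65 and 6.09 in WT and 5.97 and 5.96 in S513A at 4 hr, and 5.20 and 5.12 in WT and 5.54 and 5.44 in S513A at 8 hr. All LPS libraries were above all unstimulated ones. The log2 fold change was 1.75 at 4 hr (SE 0.10, limma adjusted p = 8.84e-08) and 1.16 at 8 hr (SE 0.10, limma adjusted p = 3.02e-06). *6530409C15Rik*, which overlaps it, changed by 2.14 at 4 hr (limma adjusted p = 0.00053), and unstranded reads do not separate the 2 genes. The level counted for *6530409C15Rik* was lower, between -1.67 and 1.58 (log2 CPM).

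*Zfp395* had the largest fall. Its log2 CPM was 4.40 and 4.37 in WT and 4.11 and 4.02 in S513A at 0 hr, then -0.42 and -0.05 in WT and -0.64 and -1.30 in S513A at 4 hr, and 1.49 and 0.90 in WT and 1.49 and 1.15 in S513A at 8 hr. In reads, 193 to 303 per library became 3 to 10 at 4 hr. The log2 fold change was -4.83 at 4 hr (SE 0.20, limma adjusted p = 9.31e-09) and -2.97 at 8 hr (SE 0.20, limma adjusted p = 5.64e-07).

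*Zfp704*, a relative of *Zfp395* with a single C2H2 finger pattern as well, was the most abundant of the strong fallers. It stood at 6.70 and 6.87 in WT and 6.75 and 6.57 in S513A at 0 hr (log2 CPM), at 4.40 and 4.89 in WT and 4.47 and 4.03 in S513A at 4 hr, and at 5.62 and 5.28 in WT and 5.98 and 5.76 in S513A at 8 hr. The groups did not overlap. Its log2 fold change was -2.27 at 4 hr (SE 0.14, limma adjusted p = 1.76e-07) and -1.06 at 8 hr (SE 0.14, limma adjusted p = 9.63e-05). *C030034L19Rik* overlaps it and changed by -2.36 at 4 hr (limma adjusted p = 0.00208), and unstranded reads do not separate the pair. The level counted for *C030034L19Rik* was lower, between -2.52 and 1.45 (log2 CPM).

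*Zfp532* encodes a partner of ZNF592, ZNF687 and ZMYND8 in a chromatin complex. Its log2 CPM was 4.07 and 4.18 in WT and 3.72 and 3.80 in S513A at 0 hr, 2.09 and 2.30 in WT and 1.68 and 0.65 in S513A at 4 hr, and 2.72 and 2.75 in WT and 2.83 and 2.17 in S513A at 8 hr. LPS libraries were all below the unstimulated ones, with a log2 fold change of -2.26 at 4 hr (SE 0.22, limma adjusted p = 5.99e-06) and -1.33 at 8 hr (SE 0.22, limma adjusted p = 0.000468). It shared 25.6% of its 50-base words with other genes. *Zfp592* and *Zfp687*, its partners in that complex, were at 0.17 (limma adjusted p = 0.314) and -0.17 (limma adjusted p = 0.371) at 4 hr.

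The next fallers rested on few reads. *Zfp791* and *Zfp541* reached the CPM minimum only in libraries of 0 hr, so they were let in through the groups where they are high. *Zfp791*, a KRAB gene, was counted 9 to 16 times at 0 hr, 0 to 2 times at 4 hr and 0 to 3 times at 8 hr. Its 49 reads at 0 hr were 19.8 times the 2 reads at 4 hr relative to library size (exact 95% interval 5.21 to 168, counting error only) and 6.75 times the 6 reads at 8 hr (2.89 to 19.3). *Zfp541*, best known from germ cells, was counted 6 to 15 times at 0 hr and 0 to 1 times at 4 hr, a ratio of 17.8 (4.65 to 152). At 8 hr its log2 fold change was -2.07 (SE 0.67, limma adjusted p = 0.0259), and that call was lost without any single 0 hr library, without either WT library of 8 hr or without S513A replicate 2 of 8 hr (limma adjusted p = 0.0527 to 0.0847). *Zfp667*, a KRAB gene, had a log2 CPM of 1.53 and 1.23 in WT and 1.56 and 1.21 in S513A at 0 hr and of 0.02 and -1.64 in WT and -0.26 and 0.14 in S513A at 4 hr. Its log2 fold change was -1.81 at 4 hr (SE 0.36, limma adjusted p = 0.00141) and -1.61 at 8 hr (SE 0.36, limma adjusted p = 0.00387).

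**Figure D2:**
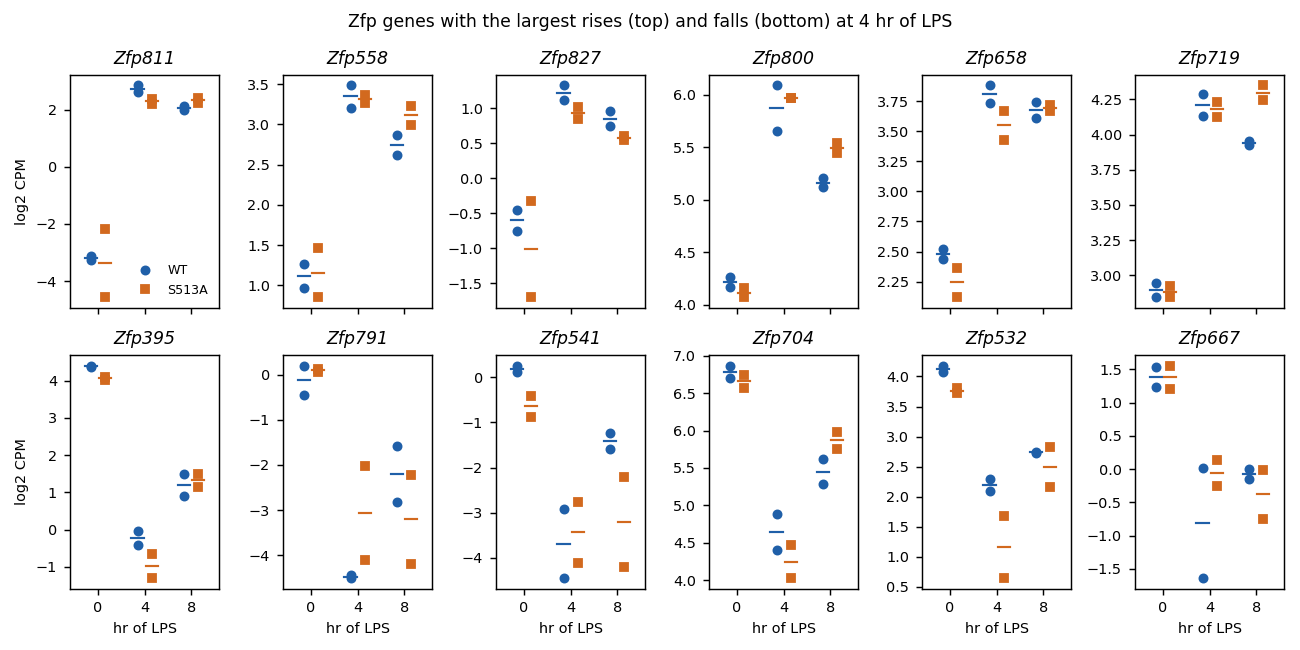
Log2 CPM in each library of the 6 Zfp genes with the largest rises (top) and the 6 with the largest falls (bottom) at 4 hr of LPS, by hr of LPS, with WT as blue circles, S513A as orange squares and a bar at each mean of 2 libraries. Genes were chosen among called ones whose LPS points all lie on one side of the 0 hr points, so that separation is given by the choice; each panel has its own vertical scale.

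The 3 most abundant members changed little. *Zfp207* was between 6.74 and 6.88 at 0 hr and between 7.11 and 7.35 at 4 hr (log2 CPM), with a log2 fold change of 0.43 (SE 0.07, limma adjusted p = 0.000544). *Zfp106* was between 6.97 and 7.24 at 0 hr and between 6.54 and 7.10 at 4 hr, with overlapping groups and a log2 fold change of -0.33 (SE 0.09, limma adjusted p = 0.0119), a call lost without S513A replicate 2 of 4 hr (limma adjusted p = 0.0504). *Zfp710* was between 6.10 and 6.46 at 0 hr and between 6.43 and 7.20 at 4 hr, with overlapping groups and a log2 fold change of 0.45 (SE 0.13, limma adjusted p = 0.0111).

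After 8 hr of LPS, 26 members rose and 47 fell, while 216 did not pass the test. With the replicate factor as a term 42 rose (14.5%, against 31% of all genes), and with length and GC content removed 76 fell (26.5%, against 31.2%). In the fit without these, the shares were 9% and 16.3%, where 24.5% of all genes tested rose and 21.6% fell. All 4 libraries of 8 hr lay above those of 0 hr for 27 members, against 23% of all genes, and below them for 43 members, against 20.7%. The median log2 fold change was -0.08 over the members and -0.0007 over all genes. Among members whose 8 hr libraries all lay on one side of the 0 hr libraries, the 6 largest rises and the 6 largest falls were those of the 12 genes described above. *Zfp580*, whose libraries overlapped, changed by -1.13 on the log2 scale (limma adjusted p = 0.0471) and is named after its value was seen. The count of falling members was smaller without WT replicate 2 of 0 hr, WT replicate 2 of 8 hr or either S513A replicate of 0 hr. The share of all genes that fell was smaller in these fits too.

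Between 4 and 8 hr, 17 members rose and 8 fell, each against 12.8% of all genes tested. With the replicate factor described below as a term, 29 rose and 24 fell, or 10% and 8.3%, where 20% and 21.9% of all genes did. A smaller share rose without WT replicate 1 or WT replicate 2 of 8 hr, both of the members and of all genes tested. The largest rise was that of *Zfp395*, with a log2 fold change of 1.86 (SE 0.20, limma adjusted p = 0.000125), beside its -4.83 at 4 hr and -2.97 at 8 hr against 0 hr. *Zfp704* rose by 1.21 (limma adjusted p = 0.000162) and *Zfp532* by 0.94 (limma adjusted p = 0.00928). Among the 8 that fell were *Zfp800*, at -0.59 (limma adjusted p = 0.00153), and *Zfp131*, at -0.54 (limma adjusted p = 0.000731). The difference between 8 and 4 hr was -0.32 for *Zfp811* (limma adjusted p = 0.62) and 0.01 for *Zfp658* (limma adjusted p = 0.977), with confidence intervals of -1.25 to 0.61 and -0.23 to 0.24.

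Within WT, 20 members rose and 44 fell at 4 hr, where 22.6% of all genes tested rose and 18.7% fell. Within S513A, 27 rose and 54 fell at 4 hr, where 23.1% and 20.2% of all genes did. At 8 hr, 12 members rose and 26 fell in WT, where 19.4% and 14.9% of all genes did, and 26 rose and 24 fell in S513A, where 20.9% and 19% of all genes did. The median log2 fold change of the members at 8 hr was -0.15 in WT and -0.02 in S513A. With the replicate factor as a term, 21 members rose and 22 fell in WT at 8 hr, where 21.7% and 16.4% of all genes did. With length and GC content removed, 26 rose and 45 fell in S513A at 8 hr, where 22.8% and 26.4% of all genes did. Leaving out 1 library moved several of these counts, and each such fit leaves 1 library in a group. The share of all genes called was smaller in the same fits as well. The exception was the share that fell in S513A at 8 hr without replicate 2 of 8 hr. In WT at 4 hr, 22 members fell without replicate 1 of 0 hr, and 13 rose and 25 fell without replicate 2 of 0 hr. In WT at 8 hr, 13 fell without replicate 1 and 8 without replicate 2 of 0 hr, 16 fell without replicate 1 of 8 hr, and 7 rose and 9 fell without replicate 2 of 8 hr. In S513A at 4 hr, 25 fell without replicate 1 of 0 hr, 16 rose and 22 fell without replicate 2 of 0 hr, 17 rose without replicate 1 of 4 hr and 29 fell without replicate 2 of 4 hr. In S513A at 8 hr, 12 rose and 9 fell without replicate 1 of 0 hr, 16 rose and 9 fell without replicate 2 of 0 hr, 13 rose without replicate 1 of 8 hr and 12 fell without replicate 2 of 8 hr.

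Members with a KRAB pattern had lower median changes than those without one. At 4 hr, 12 of the 146 with the pattern rose (8.2%) and 38 fell (26%), with a median log2 fold change of -0.22. Of the 141 without it, 23 rose (16.3%) and 33 fell (23.4%), with a median of -0.11. Of all genes tested, 29.1% rose and 26.7% fell at 4 hr. At 8 hr the medians with and without the pattern were -0.13 and -0.02. No test was made between these classes. The pattern is a string of residues and missed some genes known to encode a KRAB. *Zfp263*, for instance, was placed among those without it. By number of C2H2 fingers, 7 of 45 members with 1 to 5 fingers rose at 4 hr (15.6%) and 16 fell (35.6%). With 6 to 10 fingers, 9 of 86 rose (10.5%) and 23 fell (26.7%). With 11 or more, 17 of 151 rose (11.3%) and 32 fell (21.2%).

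**Figure D3:**
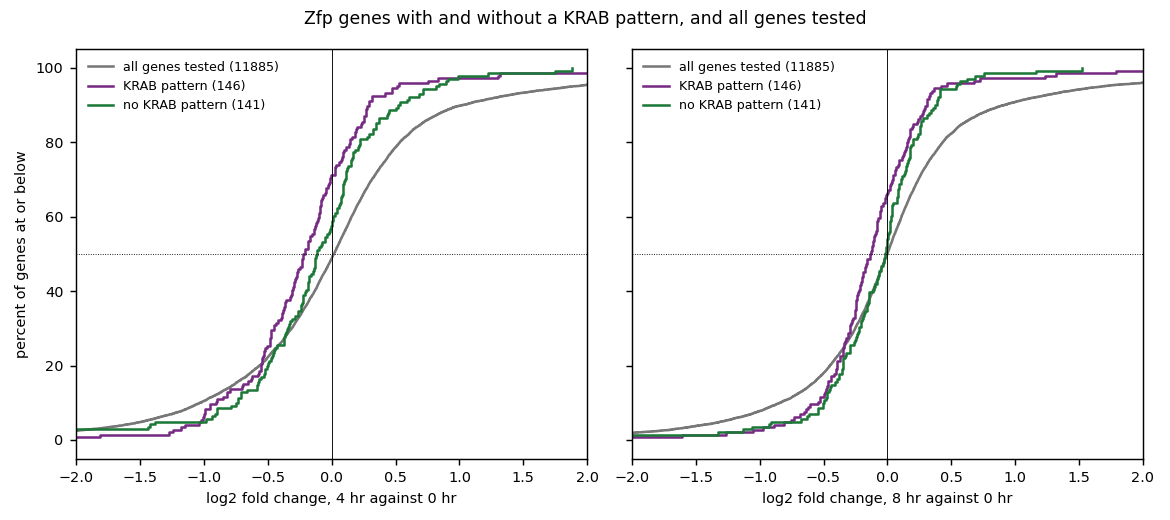
Percent of genes at or below each log2 fold change at 4 hr (left) and 8 hr (right) of LPS against 0 hr, mean of genotypes, for all 11885 genes tested (grey), 146 Zfp genes with a KRAB pattern (purple) and 141 without one (green), with values beyond 2 cut off. The curves cross 50% at -0.22, -0.11 and 0.02 on the left for the KRAB, no-KRAB and all-gene curves.

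In the genome, 78 members lie on chromosome 7, 37 on chromosome 17, 27 on chromosome 13 and 21 on chromosome 8. With at most 5 other protein-coding genes between neighbours, 191 members fall into 43 clusters, and 98 stand alone. The largest cluster, 21 members on chromosome 17 from 21008941 to 23564226, had 3 members higher and 3 lower at 4 hr, with a median log2 fold change of 0.02. The next, 17 members on chromosome 13, had 0 higher and 4 lower with a median of -0.10, and 14 members on chromosome 7 had 1 higher and 1 lower with a median of -0.17. *Zfp811* lies in a cluster of 8 on chromosome 17 in which 1 member rose and 2 fell at 4 hr. Of all genes tested, 29.1% rose and 26.7% fell at 4 hr. None of these clusters was called as a group, and no test was made on them.

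Of 12 KRAB genes known to silence retroelements or imprinted regions, 8 were members. At 4 hr, 1 rose, 1 fell and 6 did not pass the test. The shares were 12.5% each, where 29.1% of all genes tested rose and 26.7% fell. The one that rose, *Zfp568*, represses a placental promoter of *Igf2* in embryos. Its log2 CPM was 3.54 and 3.66 in WT and 3.16 and 3.23 in S513A at 0 hr, and 4.22 and 4.40 in WT and 4.18 and 4.13 in S513A at 4 hr. The groups did not overlap, and the log2 fold change was 0.84 at 4 hr (SE 0.09, limma adjusted p = 2.21e-05) and 0.72 at 8 hr (SE 0.09, limma adjusted p = 8.77e-05). *Zfp961* fell by 0.51 at 4 hr (limma adjusted p = 0.00608) and stood at -0.26 against 0 hr at 8 hr (limma adjusted p = 0.133), or at -0.37 without WT replicate 1 of 8 hr (limma adjusted p = 0.0425) and -0.46 with length and GC content removed (limma adjusted p = 0.00868). *Zfp442* and *Zfp429* did not pass, at -0.57 (limma adjusted p = 0.179) and 0.42 (limma adjusted p = 0.0746) at 4 hr. For *Zfp429*, the log2 fold change was 0.61 without S513A replicate 2 of 0 hr (limma adjusted p = 0.0129) and 0.52 without WT replicate 2 of 4 hr (limma adjusted p = 0.0474). At 8 hr it was 0.31 (limma adjusted p = 0.196), and 0.50 without S513A replicate 2 of 0 hr (limma adjusted p = 0.038). *Zfp809*, which silences murine leukemia virus in embryonic cells, was at -0.10 (limma adjusted p = 0.635) and *Zfp445*, a guardian of imprints, at 0.27 (limma adjusted p = 0.117).

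Members known for work on RNA, ribosomes, ubiquitin or SUMO numbered 14, of which 4 rose and 2 fell at 4 hr. The shares were 28.6% and 14.3%, where 29.1% of all genes tested rose and 26.7% fell. *Zfp593*, whose human counterpart acts in ribosome assembly, had the largest log2 fold change, 0.81 at 4 hr (SE 0.15, limma adjusted p = 0.000983), with 66.9% of its 50-base words shared with other genes. *Zfp598*, the ubiquitin ligase that senses collided ribosomes, was between 4.46 and 4.80 at 0 hr and between 5.07 and 5.67 at 4 hr (log2 CPM) and rose by 0.68 (SE 0.13, limma adjusted p = 0.000953). At 8 hr its rise of 0.37 (limma adjusted p = 0.0344) was lost in 7 of the 12 fits without 1 library (limma adjusted p = 0.055 to 0.111). *Zfp706* fell by 0.43 at 4 hr (limma adjusted p = 0.00372) and by 0.54 at 8 hr (limma adjusted p = 0.00111).

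Of 19 members known as sequence-specific transcription factors, 5 rose and 5 fell at 4 hr, or 26.3% each, near the 29.1% and 26.7% of all genes. *Zfp263* was at most 5.31 at 0 hr and between 6.03 and 6.26 at 4 hr (log2 CPM), without overlap, and its log2 fold change was 0.99 at 4 hr (SE 0.08, limma adjusted p = 1.62e-06) and 0.75 at 8 hr (SE 0.08, limma adjusted p = 1.97e-05). *Zfp652*, a repressor, was between 4.36 and 4.51 at 0 hr and between 3.28 and 3.58 at 4 hr, and fell by 0.99 (SE 0.10, limma adjusted p = 9.75e-06). At 8 hr it stood between 3.93 and 4.10 and the log2 fold change was -0.40 (limma adjusted p = 0.00748). *Zfp219* fell by 0.78 at 4 hr and by 0.91 at 8 hr (limma adjusted p = 0.000156 and 6.91e-05), while *Arhgef40*, which overlaps it, was 1.08 higher at 4 hr (limma adjusted p = 0.0134). *Zfp367* fell by 0.46 and by 0.50.

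Among 14 members known as partners in chromatin complexes, 3 rose (21.4%) and 2 fell (14.3%) at 4 hr. Of all genes tested, 29.1% rose and 26.7% fell. Besides *Zfp532* and *Zfp827*, the members called were *Zfp131* and *Zfp407*, which rose, and *Zfp608*, which fell. *Zfp131*, a BTB-containing factor, was between 4.29 and 4.54 at 0 hr, between 5.51 and 5.76 at 4 hr and between 5.02 and 5.28 at 8 hr (log2 CPM), without overlap. Its log2 fold change was 1.23 at 4 hr (SE 0.08, limma adjusted p = 2.67e-07) and 0.69 at 8 hr (SE 0.08, limma adjusted p = 3.59e-05). *Zfp407* rose by 0.91 at 4 hr (SE 0.11, limma adjusted p = 2.76e-05) and by 0.39 at 8 hr (limma adjusted p = 0.0112).

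Promoters of the members were searched on both strands for the κB motif of NF-κB, by its name, and for GAAANNGAA (part of the interferon-stimulated response element), TGANTCA (AP-1) and TGACGTCA (the cAMP response element). A κB match was found for 1 of the 29 members that rose at 4 hr with a promoter in the table and for 0 of the 58 that fell, against 4.35% of all 27025 promoters and 5.04% of those of 9345 genes tested. GAAANNGAA was found for 1 and 7 of these members, against 8.57% of all promoters and 7.46% of those of genes tested. TGANTCA was found for 1 and 1, against 7.93% and 5.1%, and TGACGTCA for 2 and 2, against 1.88% and 3.32%. The windows of 30 bases below are on the gene's strand, with the match in capitals. They show the κB match of *Zfp131*, the AP-1 match of *Zfp652* and the response element matches close to an annotated start of *Zfp541* and *Zfp791*. The last are the cAMP response element matches of *Zfp335* and *Zfp523*, both of which rose. The windows lie at chr13:119790936-119790965, chr11:95748873-95748902, chr7:16071824-16071853, chr8:85123082-85123111, chr2:164911798-164911827 and chr17:28177123-28177152 of GRCm38, in that order. The windows of *Zfp131* and *Zfp541* lie inside the spans of these genes (chr13:119765186-119791477 and chr7:16061775-16096340), not before the gene. A match is a string of letters and not a measured binding site.
Zfp131: agcgccgcgcGGGGAGCCCCgaatcccccc
Zfp652: gaggagaataaTGAATCAaagtgtatggaa
Zfp541: tacgtccttgTTCATTTTCaggagctagct
Zfp791: gctcacaagaGAAACAGAAcatgaagatct
Zfp335: tgggacctgcgTGACGTCAtgccacttccc
Zfp523: acccggcgtcgTGACGTCAtcacgccctcc
The log2 fold change at 4 hr was 0.35 for *Zfp335* (limma adjusted p = 0.0415) and 0.54 for *Zfp523* (limma adjusted p = 0.00429). These 2 members were chosen for their match after their values were seen.

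The partners of KRAB proteins were read from a list of 34 genes of the KAP1 and SETDB1 machinery and of related chromatin silencing, of which 31 were tested. At 4 hr, 10 rose, 7 fell and 14 did not pass, with a median log2 fold change of 0.17, and at 8 hr 7 rose and 5 fell. The shares were 32.3% and 22.6% at 4 hr and 22.6% and 16.1% at 8 hr, near the shares of all genes given above. *Trim28* itself had a log2 CPM between 5.89 and 6.23 at 0 hr and between 6.00 and 6.43 at 4 hr, with overlapping groups and a difference of 0.17 (limma adjusted p = 0.215). *Setdb1* fell by 0.50 at 4 hr (SE 0.12, limma adjusted p = 0.00514). The largest changes of the list were those of *Daxx*, a histone H3.3 chaperone, at 2.81 (SE 0.08, limma adjusted p = 6.19e-10), and of the DNA methyltransferases *Dnmt3a*, at -1.75 (SE 0.11, limma adjusted p = 1.91e-07), and *Dnmt1*, at -1.53 (SE 0.12, limma adjusted p = 9.87e-07).

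Related families with other names gave the following counts at 4 hr, where 29.1% of all genes tested rose and 26.7% fell. Of 39 Zbtb genes, whose proteins join C2H2 fingers to a BTB domain, 11 rose (28.2%) and 9 fell (23.1%). Their median log2 fold change was -0.02. Of 18 Zscan and Zkscan genes, whose proteins carry a SCAN domain, 0 rose and 6 fell (33.3%), with a median of -0.28. Of 37 other genes tested with a KRAB pattern, 5 rose (13.5%) and 10 fell (27%), with a median of -0.30.

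Between the genotypes, 0 members passed the test in any of the 6 contrasts (limma adjusted p under 0.05). Of all genes tested, 0.0337% passed before LPS, 0.0168% after 4 hr, 0.0337% after 8 hr and 0.0673% averaged over the 3 times, and in the genotype by LPS interactions at 4 and 8 hr 0% did. An unadjusted p under 0.05 was obtained for 11 members before LPS, 19 after 4 hr, 17 after 8 hr and 11 in the mean, which is 3.8%, 6.6%, 5.9% and 3.8% of the members, against 7.98%, 7.01%, 12.5% and 6.71% of all genes. The count was also 0 members under each alternative fit of the 12 libraries. The share of all genes was not near 0% in each such fit. With the replicate factor as a term, 0.5% of all genes were higher and 0.4% lower in S513A in the mean of times. The median half-width of the 95% confidence interval was 0.45 at a single time and 0.26 in the mean of times. In the mean of times the interval of 281 members lay within a 2-fold difference in either direction. Each interval is for a single gene and rests on the spread between these libraries, which may be technical. It therefore does not bound the difference between mice.

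The smallest p in the mean of times belonged to *Zfp507*, *Zfp532* and *Zfp810*. The log2 CPM of *Zfp507* was 2.40 and 2.72 in WT and 1.97 and 1.83 in S513A at 0 hr, 2.59 and 3.32 in WT and 2.26 and 2.23 in S513A at 4 hr, and 2.50 and 2.66 in WT and 2.64 and 2.36 in S513A at 8 hr. Both S513A libraries were below both WT libraries at 0 and 4 hr and overlapped them at 8 hr. The mean difference, S513A minus WT, was -0.48 (SE 0.14, 95% confidence interval -0.79 to -0.17, limma adjusted p = 0.48). It was -0.54 for *Zfp532* (SE 0.18, limma adjusted p = 0.569) and -0.51 for *Zfp810* (SE 0.18, limma adjusted p = 0.622), a KRAB gene that stood at 2.28 and 2.50 in WT and at 1.64 and 1.57 in S513A at 0 hr.

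The genotype by LPS interaction at 8 hr, the LPS response in S513A minus that in WT, had a median of 0.13 over the members and 0.01 over all genes, and 189 members were positive. An unadjusted p under 0.05 was obtained for 22 members, or 7.6%, against 20.2% of all genes, and at 4 hr for 1 member, or 0.3%, against 1.21%. The smallest adjusted p at 8 hr was 0.193, for *Zfp568* (0.79, SE 0.19), *Zfp689* (1.48, SE 0.40) and *Zfp341* (1.31, SE 0.37), among others. With the replicate factor as a term, the median of the members at 8 hr was -0.003. The scores of that factor, described below, also hold differences between the groups, so the term can take up part of the interaction itself.

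The spread between replicates of these genes was lower than over all genes above the same minimum, most of which are more abundant, in 4 of the 6 groups and higher in the other 2. Over the 136 members whose mean log2 CPM reached 3, the SD of the log2 difference between the 2 libraries of a group was 0.17 in WT at 0 hr and 0.17 in S513A at 0 hr, against 0.22 and 0.16 over 8353 genes. At 4 hr the SD was 0.31 for WT and 0.25 for S513A, against 0.40 and 0.29, and at 8 hr it was 0.20 and 0.22, against 0.16 and 0.34. Over these members, the 2 libraries of 4 hr differed the most in both genotypes. Over the 8353 genes, those of 4 hr did in WT and those of 8 hr in S513A. In S513A at 4 hr, replicate 1 was higher for 196 of the 289 members, and in WT at 4 hr for 119, with a median of replicate 1 minus replicate 2 of 0.14 and -0.11.

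These differences were set against a replicate factor, the first component of the differences between replicates over 8217 other genes, which held 67.8% of their variance. The score of a library on it was taken from deviations from the mean of all 12 libraries, so it also holds differences between the groups. As a term in a fit, the factor can therefore take up part of a group difference. The slope on this factor is the log2 change of a gene per SD of the factor. Its median was 0.06 over the members, 188 of which (65.1%) had a positive slope, and 0.01 over all genes, of which 51.8% did. Across 11275 genes the slope correlated with log2 transcript length at r = 0.57, and across 287 members at r = 0.23, as a description only, since genes of the same libraries are not independent. The median slope was -0.01 in the 96 members with the shortest transcripts, 0.06 in the middle 95 and 0.10 in the 96 longest. The median log2 fold change at 4 hr was -0.22, -0.09 and -0.17 in these classes.

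**Figure D4:**
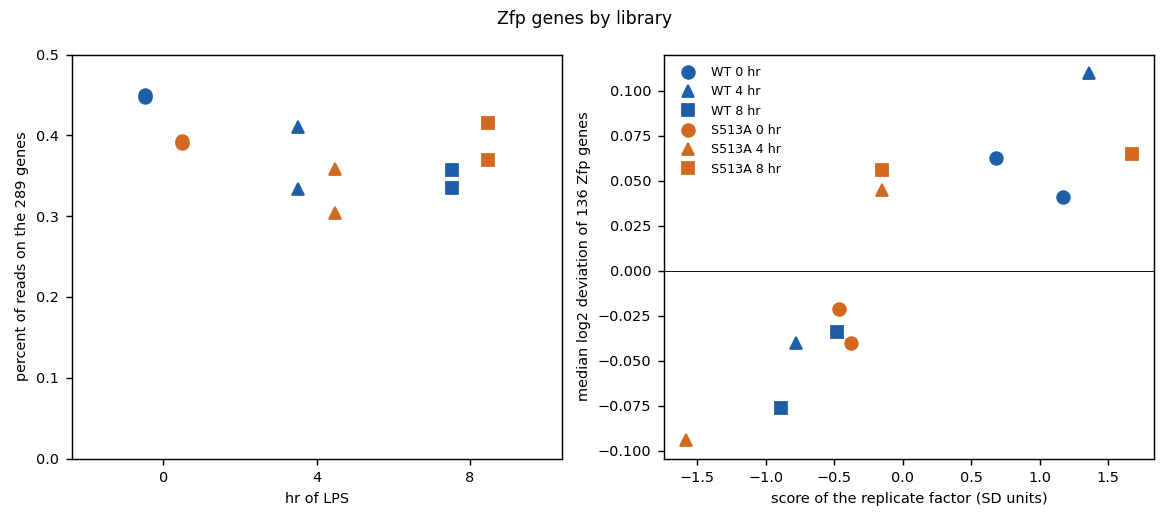
Left, percent of the reads of each library on the 289 Zfp genes by hr of LPS, from 0.304% to 0.45%; right, median log2 deviation of the 136 Zfp genes whose mean log2 CPM reached 3 from their means over all libraries, against the score of the replicate factor. Blue is WT, orange is S513A, and circles, triangles and squares are 0, 4 and 8 hr. The library with the lowest score, -1.58, has the lowest median, -0.09. The highest score, 1.67, has a median of 0.065, and the highest median, 0.11, lies at a score of 1.35.

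Group means of the factor differed as well: its scores were 1.17 and 0.68 in WT and -0.47 and -0.38 in S513A at 0 hr, and -0.48 and -0.89 in WT and 1.67 and -0.15 in S513A at 8 hr. The order of the genotypes on the factor is thus opposite at 0 and 8 hr. Scores of the 4 hr libraries overlapped between genotypes, with -0.78 and 1.35 in WT and -0.15 and -1.58 in S513A. Over the members, the median of S513A minus WT had a negative sign before LPS (-0.05) and after 4 hr (-0.08). After 8 hr it had a positive sign (0.08). The scores hold group differences of the same libraries, so a link between scores and medians was not tested. Over the 289 members, the interaction at 8 hr correlated with the slope at r = 0.33, and over all genes at r = 0.65. Both quantities come from the same 12 libraries and these values are a description. With 2 libraries per group, the part of the factor in the genotype differences was not tested beyond the fit with the factor as a term.

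**Figure D5:**
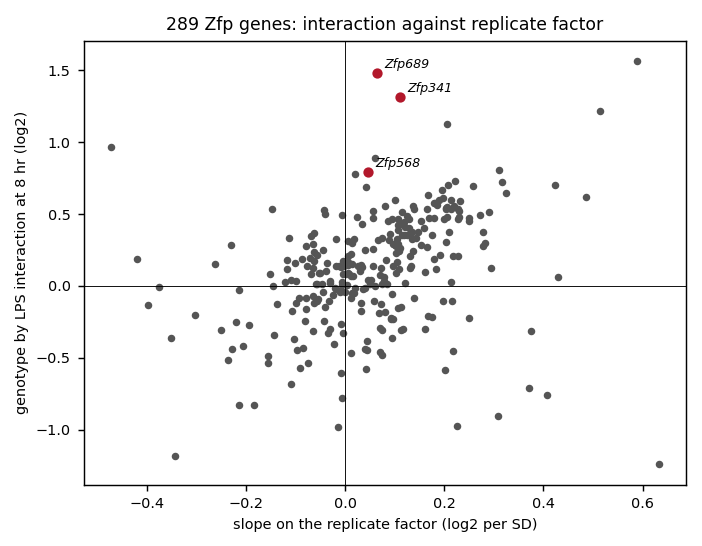
Genotype by LPS interaction at 8 hr (log2, S513A response minus WT response) of each of the 289 Zfp genes against its slope on the replicate factor (log2 per SD of the factor). Red points are the 3 genes with the smallest p, none of which passed an adjusted p of 0.05; 189 points lie above 0.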

How the data were processed

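Poly(A) RNA of the 12 libraries was sequenced in pairs. Per the study's methods and the submitters' notes, reads were aligned to mm10 with HISAT2 and counted per gene, without strand, with featureCounts 1.6.3. The deposited values are log2 CPM made by the authors with an offset of 0.5 read; the program that made them, the annotation and the gene filter are not given in the sources used here. Whole reads were recovered from them, each within 0.00125 read. Genes reaching 1 CPM in 2 or more libraries were fitted together with limma 3.58.1 in R 4.3.3 (6 group means, 12 libraries, trended prior, two-sided tests, Benjamini-Hochberg adjustment over 11885 genes, threshold 0.05). The fit was tested on simulated data. Named members had the largest changes among called members whose LPS and 0 hr libraries did not overlap, the highest level, the smallest genotype p, or the largest changes within a role list. Members and lists were chosen with earlier results of these data known. KRAB and C2H2 patterns were read from translated GENCODE transcripts, promoters from RefSeq. Alternatives were no filter, a mean of 5 CPM, a further 1 CPM added, median-ratio scaling, an untrended prior, voom weights on recovered reads, a replicate block, a replicate factor, a length and GC trend removed, and each library left out.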

Additional observations from a re-analysis of the deposited data

How the results depend on the processing

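With a mean of at least 5 CPM required, 185 members were tested, and fewer genes were tested by construction. At 4 hr, 43 fell in the mean of genotypes (23.2%) and 34 in S513A (18.4%), where 25.6% and 19.9% of all genes did. With the replicate factor as a term, 42 members rose at 8 hr (14.5%), where 31% of all genes did. Between 4 and 8 hr 29 rose (10%) and 24 fell (8.3%), where 20% and 21.9% of all genes did. At 4 hr 36 rose in WT (12.5%) and 42 in S513A (14.5%), where 29.9% and 30% of all genes did. In WT at 8 hr 21 rose (7.3%), where 21.7% of all genes did. With length and GC trends removed, 125 fell at 4 hr (43.6%) and 76 at 8 hr (26.5%), where 34.8% and 31.2% of all genes did. Between 4 and 8 hr 30 rose (10.5%) and 18 fell (6.3%), where 18.1% and 18.7% of all genes did. At 4 hr 77 fell in WT (26.8%) and 82 in S513A (28.6%), where 27% and 27.6% of all genes did. At 8 hr 52 fell in WT (18.1%) and 45 in S513A (15.7%), where 23.1% and 26.4% of all genes did. The cause was not tested. Of the calls at 4 hr, 96 of 106 were kept in that fit and 67 of 72 at 8 hr; 2 of those at 4 hr that were lost turned sign without being called. Without 1 library, the counts ran from 28 to 40 higher and 61 to 80 lower at 4 hr, 18 to 31 and 26 to 51 at 8 hr, 11 to 24 and 7 to 12 between 4 and 8 hr, 13 to 27 and 22 to 46 in WT and 16 to 30 and 22 to 59 in S513A at 4 hr, and 7 to 14 and 8 to 35 in WT and 12 to 29 and 9 to 28 in S513A at 8 hr. The shares of all genes called moved between these fits as well. The uncalled *Zfp442* stood at -0.22 at 8 hr, at -0.50 without S513A replicate 1 and at 0.0515 without S513A replicate 2 of 8 hr. At 8 hr, calls without 1 library were also lost for *Zfp106* (7 fits), *Zfp207* (4) and *Zfp710* (7). Replicate numbers were not taken to pair the samples in the main fit. The correlation of deviations was -0.098 to 0.081 in WT and 0.087 to 0.417 in S513A, highest between S513A at 4 and 8 hr. With 2 libraries per group, these values cannot decide whether the samples were paired. With the replicate block, 35 members rose (12.1%) and 77 fell (26.6%) at 4 hr, where 29.3% and 26.9% of all genes did. At 8 hr 23 rose (8%) and 48 fell (16.6%), where 24.7% and 21.7% of all genes did. With 2 libraries per group and a median of 79.5 reads per member and library, the precision of the genotype differences was limited.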
